A study of Saccharomyces cerevisiae Sigma1278b with 62 samples.

Results

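The nuclear-encoded respiratory chain and ATP synthase of budding yeast were examined as a set of 39 open reading frames (ORFs), chosen by their ORF identifiers. No measured value entered that rule, but the choice was made with earlier results of these data known. The set holds 9 subunits of complex IV (cytochrome c oxidase), 9 of complex III (the cytochrome bc1 complex), 4 of complex II (succinate dehydrogenase), 3 NADH dehydrogenases, 2 cytochrome c isoforms and 12 subunits of the ATP synthase. These are 39 of the 5563 ORFs counted in the study, and every one of the 39 was present in all 4 deposited count tables.

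The respiratory chain passes electrons from NADH and succinate to oxygen and stores the energy as a proton gradient across the inner mitochondrial membrane, which the ATP synthase uses to make ATP. Budding yeast has no proton-pumping complex I, and instead the internal NADH dehydrogenase NDI1 and the external ones NDE1 and NDE2 feed electrons to ubiquinone, from which complex III, cytochrome c and complex IV carry them on. Cells growing on glucose ferment and hold most of these genes at low levels, while glycerol can support growth only through respiration. Complexes III and IV and the ATP synthase also contain subunits encoded in mitochondrial DNA, which were not analysed here.

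Ribosome footprints (FP), the stretches of mRNA that ribosomes protect from nuclease, were sequenced beside total RNA from the same extracts to ask how Asc1, the yeast RACK1 protein of the small ribosomal subunit, and other ribosomal proteins affect translation. All strains were of the Sigma1278b background, and all cultures, in either medium, were grown at 30 °C and received 0.1 mg/ml cycloheximide before harvest. In 2% glucose at 30 °C the mutants were asc1-M1X, in which the start codon of ASC1 is replaced by a stop codon so that no Asc1 protein is made, asc1Δ, a kanMX deletion that also removes the small nucleolar RNA snR24 from the ASC1 intron, the ribosome-binding mutant asc1-D109Y, and rpl23bΔ and rpp1aΔ, which each lack 1 ribosomal protein gene of the large subunit, and all 5 were set against the same wild type (WT) libraries. The ribosome-binding mutant asc1-DE had a WT of its own, both prepared with an earlier poly(A)-tailing protocol. The small-subunit deletions rps0bΔ and rps16bΔ were set against the isogenic WT of the Sigma1278b deletion collection. In 3% glycerol asc1-M1X was set against WT treated in the same way, both profiled some hours after a move from glucose medium and not in long-term growth on glycerol, and a further set of asc1-M1X and WT total RNA from glucose was depleted of rRNA (Ribo-Zero) in place of oligo-dT selection. Each group had 2 biological replicates, so p-values measure the spread between those cultures. These are bulk extracts, in which fewer cells expressing a gene and less RNA per cell cannot be told apart.

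The tables held 56 libraries with 1719206 to 15323143 reads counted on ORFs (median 7168065). In footprints, ASC1 itself had 249 and 179 reads in asc1-M1X, with 165 and 66 reads in asc1Δ, against 30475 and 33792 reads in WT, and in glycerol 90 and 137 reads in asc1-M1X, against 6361 and 10783 reads in WT. The deleted paralogs had 19 to 112 footprint reads in their own deletion strains, and no library went against its strain label. The titles of the 2 Ribo-Zero mutant libraries name an Asc1 null where their strain label names asc1-M1X, and they had 5576 and 6761 reads on ASC1, against 61 and 145 reads in total RNA of asc1Δ, so they are called asc1-M1X here. The point mutants asc1-D109Y and asc1-DE cannot be checked from ORF counts.

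Below, a level is given in CPM, reads scaled to a library of 1000000 after correction by trimmed means of M values (TMM) within library type, and each experiment was scaled on its own. Where libraries of 2 experiments are set against each other they were scaled jointly, so that 1 library can have another CPM there. Changes are log2 ratios ± standard error (SE) from edgeR's quasi-likelihood fit, with p-values adjusted by the Benjamini-Hochberg method over all ORFs tested, and a change was called at an adjusted p under 0.05. An ORF was tested where its reads summed to at least 128 over the libraries of each type in the comparison. Translation efficiency (TE) is the footprint level over the total RNA level, and its change was tested as the interaction of library type and strain. Levels were not compared between genes, because ORF lengths were not used.

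The 39 members together took a much larger share of footprints in glycerol than in glucose, and a smaller share in asc1-M1X than in WT within glycerol. In glycerol they took 4.76% and 4.88% of nuclear ORF footprint reads in asc1-M1X, against 6.62% and 6.87% in WT, which is 0.715 times the WT mean. In glucose the order was the other way round, with 0.742% and 0.758% in asc1-M1X, with 0.733% and 0.769% in asc1Δ, against 0.596% and 0.632% in WT, 1.22 times the WT mean in both strains. In neither medium did the strains overlap. The ribosomal protein deletions rpl23bΔ, at 0.910% and 0.926%, and rpp1aΔ, at 0.912% and 0.917%, took 1.5 and 1.49 times the share of that WT. The asc1-D109Y share was 0.624% and 0.637%, and that of asc1-DE was 0.589% and 0.738%, against 0.630% and 0.667% in its WT, so asc1-DE overlapped its WT. The rps0bΔ share was 0.676% and 0.667% and the rps16bΔ share 0.618% and 0.617%, against 0.604% and 0.592% in the collection WT. The 95% Wilson intervals, which cover counting error only, reached at most 0.0189 percentage points to either side of these shares.

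**Figure D1:**
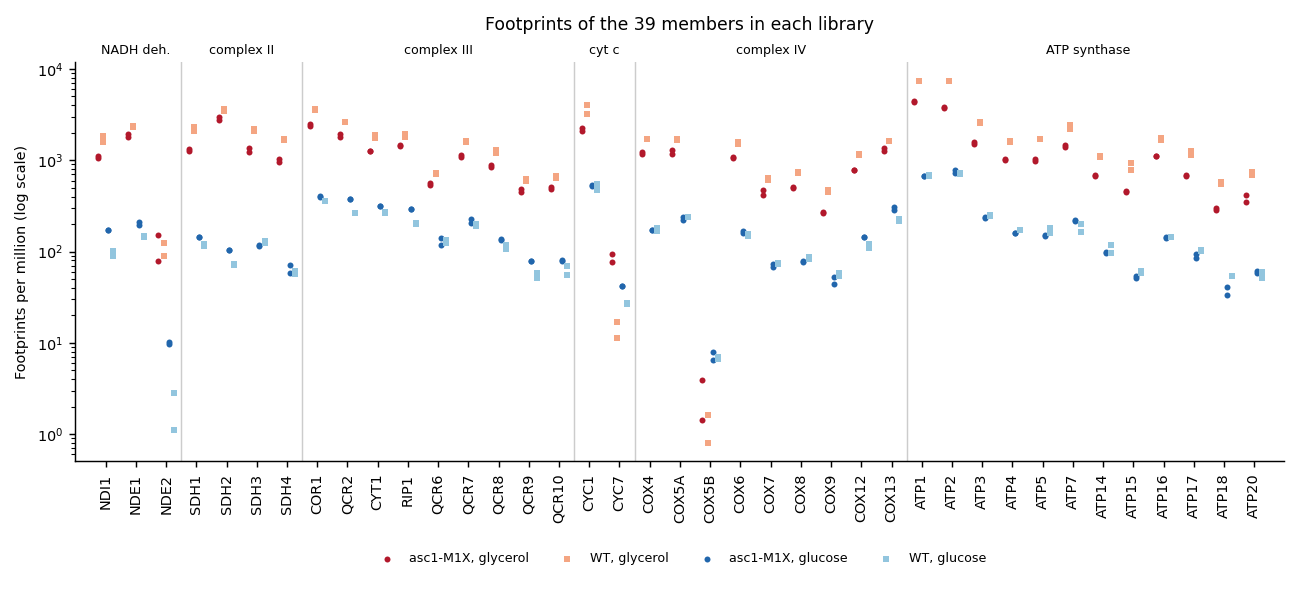
Footprint CPM (log axis) of each of the 39 members, grouped by complex, in every library of asc1-M1X in glycerol, WT in glycerol, asc1-M1X in glucose and WT in glucose; each medium was scaled separately. In glycerol 36 members lie lower in both asc1-M1X libraries than in either WT library, while in glucose 19 lie higher, 10 lie lower and 10 overlap.

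Wild-type cells in glycerol had far more footprints on nearly every member than wild-type cells in glucose. Of 38 members tested in footprints, 37 were higher in glycerol and 1, CYC7 (YEL039C), was lower, with a median log2 change of 3.28; over all ORFs tested 76.3% were called and 40.2% were called higher. In total RNA all 39 members were higher, with a median of 3.60, against 85.5% of ORFs called and 42.1% called higher. The members' share of footprints was 11-fold higher in glycerol by group means. The media were profiled in separate experiments, so that medium and experiment cannot be told apart.

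Complex II and the NADH dehydrogenases had the highest medians among the complexes. SDH2 (YLL041C), the iron-sulfur subunit of complex II, had 3495 and 3460 footprint CPM in glycerol, against 75.3 and 72.7 in glucose, a log2 change of 5.55 ± 0.09 (adjusted p = 3.4e-07, edgeR). The external NADH dehydrogenase NDE2 (YDL085W) had 119 and 88.7 CPM in glycerol, against 2.87 and 1.14 in glucose (log2 change 5.72 ± 0.30, adjusted p = 6.56e-06, edgeR). Both genes lay far above their glucose range in each glycerol library. The complex II median was 4.46, with SDH3 (YKL141W), a membrane anchor subunit, lowest at 4.0, and NDE1 (YMR145C), the other external NADH dehydrogenase, was the lowest NADH dehydrogenase, at 3.93.

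The remaining complexes lay in a narrow band. Footprints on complex III changed by a median of 3.23, from 2.40 for the acidic subunit QCR6 (YFR033C) to 3.39 for QCR8 (YJL166W), and its core protein COR1 (YBL045C) had 3469 and 3619 CPM in glycerol, against 365 in each glucose library (3.28 ± 0.08, adjusted p = 4.47e-07, edgeR). Complex IV had a median of 3.03, with its subunit COX4 (YGL187C) at 1658 and 1694 CPM in glycerol, against 170 and 186 in glucose (3.23), and a range from 2.72 for COX5A (YNL052W) to 3.27 for COX6 (YHR051W). The ATP synthase had a median of 3.34, from 3.16 for the stator subunit ATP4 (YPL078C) to 3.77 for ATP15 (YPL271W), the F1 epsilon subunit. Its F1 delta subunit ATP16 (YDL004W) had 1685 and 1637 CPM in glycerol, against 147 and 149 in glucose (3.49 ± 0.08, adjusted p = 4.09e-07, edgeR). Spread over a complex was thus small beside the change itself.

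The hypoxic isoforms did not follow the rest. CYC7, the cytochrome c isoform known for expression at low oxygen, had 11 and 16.6 footprint CPM in glycerol, against 27.1 and 28.2 in glucose (log2 change −0.97 ± 0.20, adjusted p = 0.00369, edgeR), while CYC1 (YJR048W), the main isoform, had 3141 and 4030 in glycerol, against 486 and 563 in glucose (2.77 ± 0.15, adjusted p = 6.34e-06, edgeR). COX5B (YIL111W), the hypoxic isoform of COX5A, had 5 and 16 footprint reads in glycerol, against 48 and 54 in glucose, and its sum of 123 was under the limit for testing. The groups did not overlap for any of these 3 genes.

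Total RNA, and with it TE, depended on which glucose libraries served as the reference. Against the WT of the main glucose experiment, 15 members had higher TE in glycerol and 19 lower, among 74.0% of ORFs called, from −2.46 for ATP20 (YPR020W), a subunit tied to ATP synthase dimers, to 3.35 for NDI1 (YML120C). Set against the deletion collection WT, an alternative added after seeing the data, TE was higher for 20 members and lower for 0 of 39 (36.8% of ORFs called), and NDI1 then had a TE change of 0.49 (adjusted p = 0.0717, edgeR). Total RNA of NDI1 rose by 0.75 on the log2 scale against the first WT and by 3.70 against the second. CYC7 total RNA was 1.43 higher against the first and 1.90 lower (−1.90) against the second, and COX5B likewise gave 0.92 and −1.63. Footprints did not show such a split: against the collection WT 37 of 39 members were higher (76.6% of ORFs called, 39.2% higher) with a median of 3.36, and CYC7 and COX5B were the 2 that were lower. The 2 glucose WT groups themselves differed in total RNA, from −3.21 for SDH1 (YKL148C) to 3.71 for ATP20 on the log2 scale with collection WT over the main WT, but by −0.56 to 0.62 in footprints. What differs between the 2 sets of glucose libraries was not tested.

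**Figure D2:**
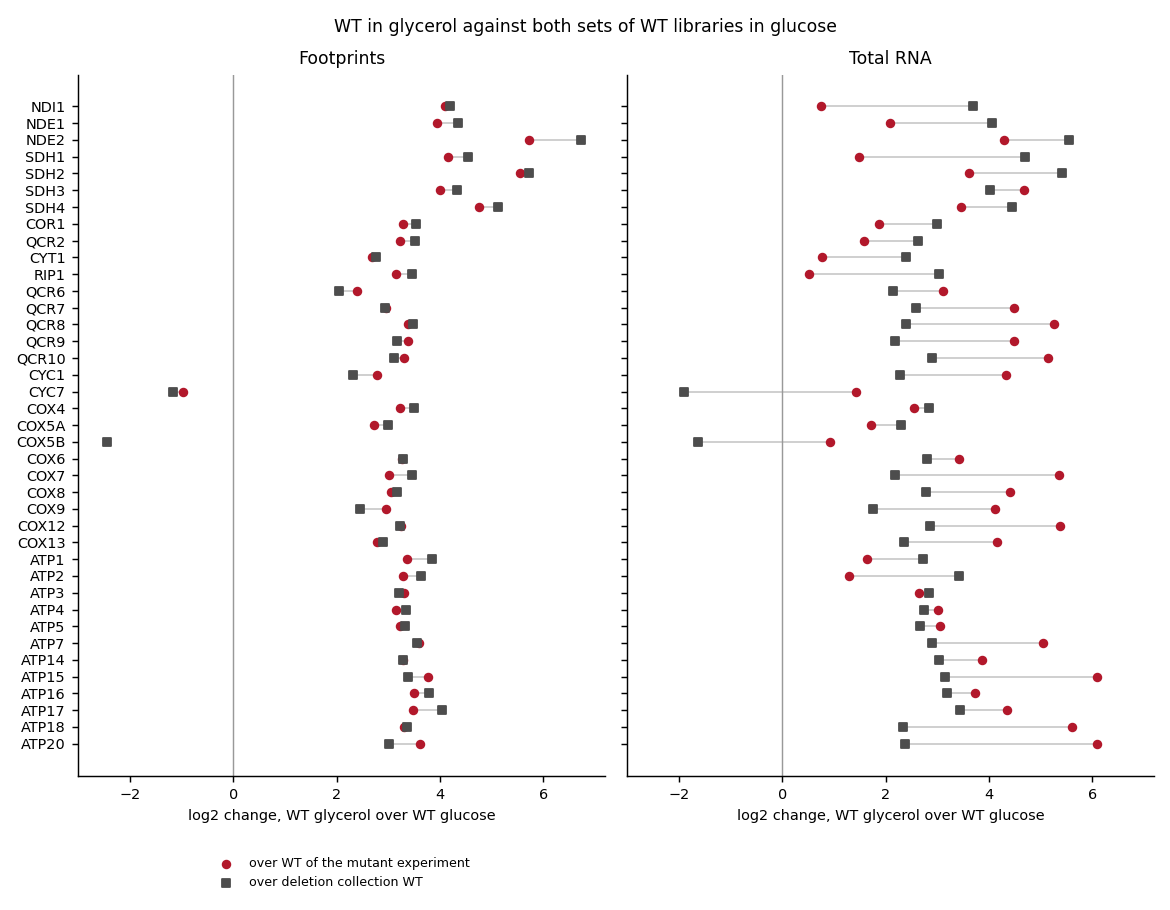
Log2 change of each member in WT glycerol cultures over WT glucose cultures, in footprints and in total RNA, with the main glucose WT or the deletion collection WT as the reference. Footprint changes lie close together for both references, with medians of 3.28 and 3.36, while total RNA changes move between references, as for NDI1 (0.75 and 3.70).

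In glycerol, loss of Asc1 went with fewer footprints on almost the whole set. Of 38 members tested, 33 fell and 1 rose in asc1-M1X, with a median log2 change of −0.57, where 41.3% of all ORFs tested were called and 22.5% were called lower. With mutant and WT cultures of the same number compared, the median was −0.58 and −0.59. Scaled by library size alone, without TMM, which moved the median of all ORFs by 0.15 on the log2 scale, 24 fell and 1 rose. Over all ORFs 792 of 5122 were then called lower. The members that were not called with TMM were COX13 (YGL191W), SDH2, NDE1 and NDE2.

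All 12 ATP synthase subunits fell, with a median of −0.76. The catalytic F1 beta subunit ATP2 (YJR121W) had 3703 and 3821 footprint CPM in asc1-M1X, against 7325 and 7414 in WT, a log2 change of −0.97 ± 0.13 (adjusted p = 0.00206, edgeR). ATP18 (YML081C-A), the i/j subunit of the membrane sector, had 288 and 303 CPM in asc1-M1X, against 553 and 572 in WT (−0.93 ± 0.11, adjusted p = 0.00153, edgeR). In both genes every asc1-M1X library lay below every WT library. F1 epsilon subunit ATP15 had 458 and 448 CPM in asc1-M1X, against 924 and 790 in WT (−0.92 ± 0.13, adjusted p = 0.00216, edgeR). ATP1 (YBL099W), the F1 alpha subunit, had 4341 and 4425 CPM in asc1-M1X, against 7481 and 7349 in WT (−0.76), and ATP20 had 351 and 413 in asc1-M1X, against 686 and 748 in WT (−0.91). These subunits also lay wholly below WT, and the smallest change of the 12 was that of ATP16, at −0.62. Together the 12 took 1.73% and 1.80% of nuclear footprints in asc1-M1X, against 2.76% and 2.78% in WT.

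Of complex II 3 of 4 subunits fell, and of complex III all 9. The flavoprotein subunit SDH1 had 1320 and 1261 footprint CPM in asc1-M1X, against 2110 and 2343 in WT (−0.79 ± 0.13, adjusted p = 0.00356, edgeR). The membrane anchor SDH4 (YDR178W) had 1031 and 958 in asc1-M1X, against 1658 and 1726 in WT (−0.77, adjusted p = 0.00327, edgeR). The other anchor, SDH3, had 1350 and 1239 in asc1-M1X, against 2216 and 2074 in WT (−0.73, adjusted p = 0.00453, edgeR). SDH2 was the member of complex II that was not called, at −0.32 (adjusted p = 0.0858, edgeR). The complex III median was −0.49. COR1 had 2355 and 2495 CPM in asc1-M1X, against 3594 and 3657 in WT (−0.58 ± 0.13, adjusted p = 0.0106, edgeR), and cytochrome c1, CYT1 (YOR065W), had 1254 and 1255 in asc1-M1X, against 1745 and 1900 in WT (−0.54 ± 0.12, adjusted p = 0.0125, edgeR). QCR7 (YDR529C), a small subunit, had 1139 and 1097 in asc1-M1X, against 1581 and 1620 in WT (−0.52, adjusted p = 0.0127, edgeR). The Rieske iron-sulfur protein RIP1 (YEL024W) was nearest to the threshold, at −0.37 (adjusted p = 0.0496, edgeR).

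Complex IV had 7 of 8 tested subunits lower, with a median of −0.52. Its subunit COX9 (YDL067C) had 268 and 265 footprint CPM in asc1-M1X, against 453 and 467 in WT (−0.79 ± 0.11, adjusted p = 0.00205, edgeR), with no overlap. COX5A had 1308 and 1186 in asc1-M1X, against 1698 and 1654 in WT (−0.43, adjusted p = 0.0309, edgeR). COX12 (YLR038C) had 777 and 786 in asc1-M1X, against 1164 and 1143 in WT (−0.56, adjusted p = 0.00845, edgeR), and COX8 (YLR395C), a small membrane subunit, had 511 and 503 in asc1-M1X, against 728 and 753 in WT (−0.55, adjusted p = 0.00852, edgeR). COX13 was the subunit not called, at −0.30 (adjusted p = 0.0882, edgeR).

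Among the NADH dehydrogenases, NDI1 had 1058 and 1115 footprint CPM in asc1-M1X, against 1597 and 1849 in WT (−0.67 ± 0.13, adjusted p = 0.00746, edgeR). NDE1 had 1821 and 1926 in asc1-M1X, against 2337 and 2388 in WT, a log2 change of −0.33 that did not pass (adjusted p = 0.0681, edgeR), although the groups did not overlap. NDE2 had 152 and 78.8 in asc1-M1X, against 123 and 89.7 in WT, and overlapped (adjusted p = 0.774, edgeR).

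The cytochrome c isoforms moved in opposite directions. CYC1 had 2100 and 2255 footprint CPM in asc1-M1X, against 3254 and 4072 in WT (−0.75 ± 0.16, adjusted p = 0.00844, edgeR). CYC7 had 94.2 and 76.8 in asc1-M1X, against 11.4 and 16.7 in WT, a log2 change of 2.56 ± 0.19 (adjusted p = 0.000456, edgeR). Its total RNA moved as well, with 181 and 130 CPM in asc1-M1X, against 29.6 and 34.7 in WT (2.27 ± 0.18, adjusted p = 2.57e-05, edgeR). COX5B total RNA had 47.0 and 31.4 CPM in asc1-M1X, against 20.2 and 17.0 in WT (1.08 ± 0.21, adjusted p = 0.00639, edgeR). Its footprints were 25 and 14 reads in asc1-M1X, against 5 and 16 reads in WT, overlapped and were too few to test. CYC7 and COX5B were the 2 members whose total RNA rose.

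Total RNA was called less often, and TE for no member. Of 39 members, 10 fell and 2 rose in total RNA, with a median of −0.43 and 18.3% of ORFs called, 8.48% lower. The ATP synthase had 7 of the 10, namely ATP2, ATP3 (YBR039W), ATP14 (YLR295C), ATP16, ATP17 (YDR377W), ATP18 and ATP20. For ATP2 total RNA was 1000 and 911 CPM in asc1-M1X, against 1528 and 1584 in WT (−0.70, adjusted p = 0.0208, edgeR), and for SDH1 it was 269 and 245 in asc1-M1X, against 361 and 415 in WT (−0.59, adjusted p = 0.018, edgeR). In 31 members both asc1-M1X libraries lay below both WT libraries in total RNA. DESeq2 called 22 members, and with a culture left out edgeR called 5 (asc1-M1X culture 1), 3 (asc1-M1X culture 2) or 6 (WT culture 2). TE was called for 0 of 38 members by edgeR, for 0 by DESeq2, and for 2 at an unadjusted p under 0.05, where 0.216% of ORFs were called; the median TE change was −0.19, against −0.04 over all ORFs. With the culture as a replicate block, which joins footprints and total RNA of one extract, TE of 2 members fell, CYT1 by 0.47 and NDI1 by 0.44 on the log2 scale. The same block called TE of 556 of 5083 ORFs, 341 of them lower.

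**Figure D3:**
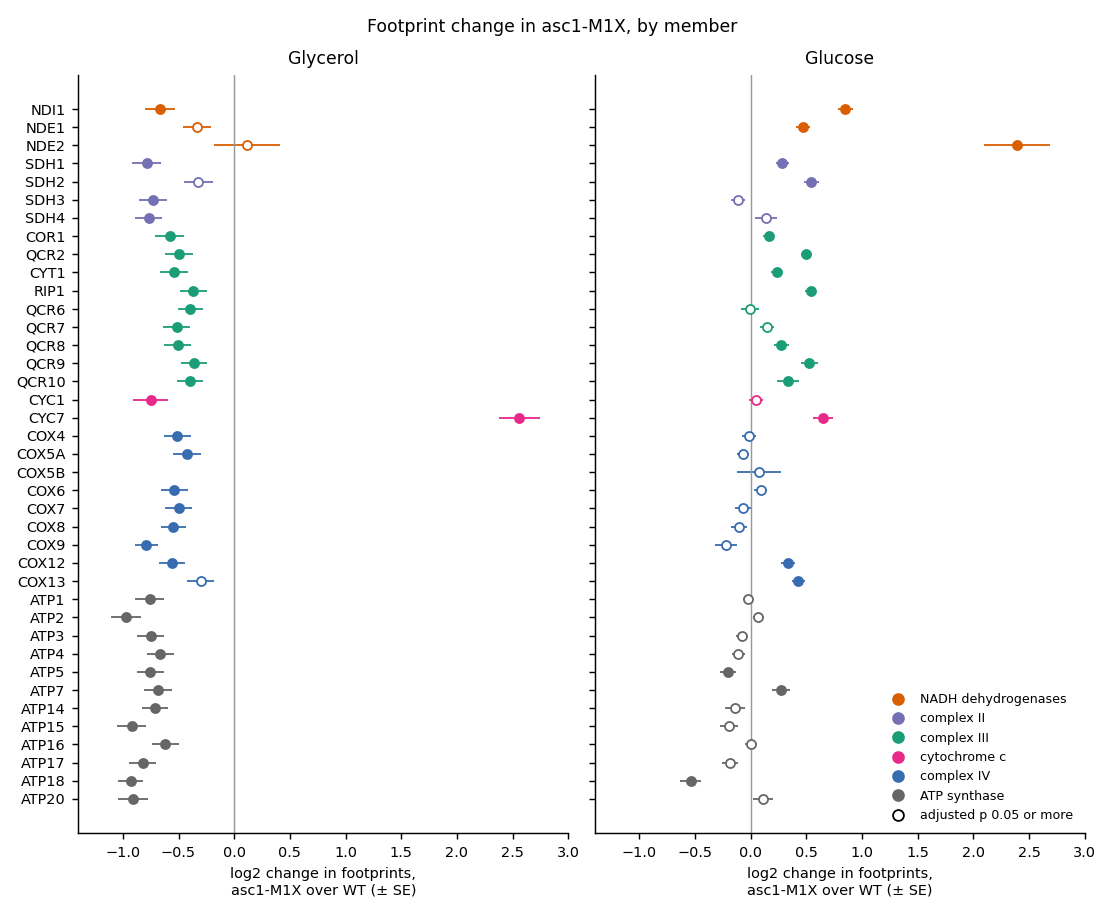
Log2 footprint change of asc1-M1X over WT for each member, with SE bars, in glycerol (left) and in glucose (right); filled points had an adjusted p under 0.05. In glycerol 33 members lie below 0 with filled points and CYC7 stands alone at 2.56, while in glucose 16 are filled above 0 and 2 below.

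In glucose, both Asc1 nulls had more footprints on most of complex III and on the NADH dehydrogenases NDI1 and NDE1. Of 12 ATP synthase subunits, 3 were called in asc1-M1X and 2 in asc1Δ. In asc1-M1X, 16 members rose and 2 fell of 39 tested, with a median log2 change of 0.09, where 52.1% of all ORFs were called, 25.9% higher and 26.2% lower. In asc1Δ, 15 rose and 3 fell, with a median of 0.10, against 49.5% of ORFs called, 24.6% higher. Both strains were set against the same WT libraries, so their values are given side by side and not as independent evidence. Scaled by library size alone, which moved the median of all ORFs by 0.15 in both strains, 24 rose and 1 fell in asc1-M1X, and 20 rose and 1 fell in asc1Δ. Over all ORFs 1999 of 4960 were then called higher in asc1-M1X and 1903 of 4970 in asc1Δ. With the culture number as a replicate block, 17 members were higher and 5 lower in asc1-M1X, and 18 higher and 7 lower in asc1Δ. That block called 1456 ORFs higher and 1478 lower in asc1-M1X, and 1499 higher and 1532 lower in asc1Δ.

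NDI1 and NDE1 rose in both strains. NDI1 had 171 and 173 footprint CPM in asc1-M1X, with 175 and 185 in asc1Δ, against 102 and 89.5 in WT, log2 changes of 0.85 ± 0.07 (adjusted p = 1.36e-06, edgeR) and 0.91 ± 0.08 (adjusted p = 3.23e-07, edgeR). NDE1 had 194 and 213 in asc1-M1X, with 193 and 223 in asc1Δ, against 146 and 148 in WT (0.47 ± 0.06 and 0.50). Both mutants lay above WT for both genes. NDE2 was a low-count member, at 9.66 and 10.2 CPM in asc1-M1X, with 8.53 and 11 in asc1Δ, against 2.80 and 1.11 in WT (2.39 ± 0.30, adjusted p = 4.2e-05, edgeR, and 2.34, adjusted p = 2.93e-05). The WT values of NDE2 rested on 19 and 9 reads.

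Complex III had 7 of 9 subunits higher in asc1-M1X and 6 in asc1Δ, with none lower in either strain, although QCR6 was called lower in asc1Δ with the replicate block. RIP1 had 296 and 291 footprint CPM in asc1-M1X, with 295 and 291 in asc1Δ, against 199 and 205 in WT (0.54 ± 0.05, adjusted p = 5.29e-06, edgeR, and 0.54). The core protein QCR2 (YPR191W) had 372 and 373 in asc1-M1X, with 391 and 381 in asc1Δ, against 263 and 265 in WT (0.50 ± 0.05, adjusted p = 5.78e-06, edgeR, and 0.55). Neither gene overlapped WT. QCR9 (YGR183C), a small subunit of the complex, had 79.3 and 79.0 in asc1-M1X, against 51.4 and 58.0 in WT (0.53 ± 0.08, adjusted p = 0.000186, edgeR).

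In complex II, SDH2 had 105 footprint CPM in each asc1-M1X library, with 104 and 112 in asc1Δ, against 73.4 and 70.4 in WT (0.54 ± 0.07 and 0.58). SDH1 had 143 and 146 in asc1-M1X, with 145 and 140 in asc1Δ, against 122 and 115 in WT (0.28 ± 0.06, adjusted p = 0.00233, edgeR, and 0.27). SDH4 was called in asc1Δ, at 0.31 (adjusted p = 0.00703, edgeR). In complex IV 2 of 9 subunits rose in asc1-M1X, COX13, with 286 and 310 in the mutant, against 226 and 217 in WT (0.43 ± 0.06, adjusted p = 7.53e-05, edgeR), and COX12, at 0.34. CYC7 had 42.0 and 42.3 in asc1-M1X, with 43.8 and 44.8 in asc1Δ, against 26.4 and 27.3 in WT (0.65 ± 0.09 and 0.72), and CYC1, with 517 and 539 in asc1-M1X, against 474 and 545 in WT, overlapped (adjusted p = 0.536, edgeR).

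Both members called lower in asc1-M1X without a replicate block belonged to the ATP synthase, and the block added ATP15, ATP17 and COX9. ATP18 had 33.7 and 40.7 footprint CPM in asc1-M1X, with 35.6 and 41.7 in asc1Δ, against 53.5 and 54.5 in WT (−0.54 ± 0.10, adjusted p = 0.000678, edgeR, and −0.49, adjusted p = 0.000868). The stator subunit ATP5 (YDR298C) had 148 and 150 in asc1-M1X, against 159 and 183 in WT (−0.20 ± 0.07, adjusted p = 0.0298, edgeR), and was −0.23 in asc1Δ. ATP7 (YKL016C), also of the stator, had 216 and 224 in asc1-M1X, against 164 and 200 in WT (0.27 ± 0.08, adjusted p = 0.013, edgeR). The median of the 12 subunits in asc1-M1X was −0.10 and turned to 0.06 under library size alone, where 5 rose and 1, ATP18, fell, so no direction is given for the complex. In asc1Δ, COX9 was also lower, at −0.30 (adjusted p = 0.0116, edgeR). Neither ATP5 nor COX9 was called in asc1Δ under library size alone.

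Total RNA rose for 15 members in asc1-M1X, with a median of 0.17 (37.6% of ORFs called, 18.6% higher), and for 13 in asc1Δ, with a median of 0.17 (33.0% called, 17.1% higher). Without a replicate block 0 fell in either strain (edgeR), and with it 1, SDH1, was called lower in each. NDE1 had 206 and 235 CPM in total RNA in asc1-M1X, against 160 and 153 in WT (0.49, adjusted p = 0.000879, edgeR), close to its footprint change. Without asc1-M1X culture 2 the count was 6, and in asc1Δ it was 7 or 8 without an asc1Δ culture and 7 without WT culture 1. Both cytochrome c isoforms rose in total RNA in asc1-M1X, CYC1 by 0.25 ± 0.07 (adjusted p = 0.0137, edgeR) and CYC7 by 0.65. In the Ribo-Zero libraries neither rise was called, at 0.146 for CYC1 (adjusted p = 0.0814, edgeR) and 0.225 for CYC7 (adjusted p = 0.472, edgeR).

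TE was called higher for 4 members in asc1-M1X, 10.3% of the set, where TE was called for 20.1% of all ORFs and 11.6% were higher. The median TE change of the members was −0.08, with 11 of 39 above 0. In asc1Δ it was −0.06, again with 11 of 39 above 0. With Ribo-Zero total RNA the asc1-M1X median was 0.007, with 22 of 39 above 0. The TE of NDI1 was 1.63 and 1.56 in asc1-M1X, with 1.67 and 1.86 in asc1Δ, against 0.933 and 0.844 in WT (log2 change 0.84 ± 0.10, adjusted p = 0.000117, edgeR, and 0.99 ± 0.11, adjusted p = 0.000369), while its total RNA was 105 and 111 CPM in asc1-M1X, against a mean of 107 in WT. The TE of SDH1 was 1.11 and 1.13 in asc1-M1X, against 0.776 and 0.822 in WT (0.49 ± 0.10, adjusted p = 0.00347, edgeR). RIP1 had a TE of 1.96 and 1.94 in asc1-M1X, against 1.46 and 1.56 in WT (0.37 ± 0.08, adjusted p = 0.00531, edgeR). QCR2 had 1.54 and 1.59 in asc1-M1X, against 1.34 and 1.29 in WT (0.26 ± 0.08, adjusted p = 0.0272, edgeR). The same 4 rose in asc1Δ (11.5% of ORFs called, 7.38% higher), by 0.47 for SDH1, 0.35 for RIP1 and 0.29 for QCR2, while the TE of COX7 (YMR256C), a small complex IV subunit, was 2.10 and 2.09, against 3.18 and 2.78 in WT (−0.49 ± 0.13, adjusted p = 0.032, edgeR). With the replicate block 11 members were called in asc1Δ, 6 higher and 5 lower, and 5 in asc1-M1X, where CYC1 joined at −0.20. Over all ORFs the block called TE of 1484 of 4958 in asc1Δ and of 1543 of 4947 in asc1-M1X. With a culture left out, TE was called for as few as 1 member in asc1-M1X (without its culture 2) and for 1 in asc1Δ (without any of its cultures or those of WT).

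Of these 4, NDI1 alone was called in TE when total RNA came from the Ribo-Zero libraries. There its total RNA was 137 and 139 CPM in asc1-M1X, against 98.8 and 104 in WT (0.45, adjusted p = 2.85e-06, edgeR), and its TE rose by 0.41 ± 0.11 on the log2 scale (adjusted p = 0.0149, edgeR), where 9.2% of ORFs were called. QCR2 total RNA was 290 and 295 in asc1-M1X, against 192 and 184 in WT, with a TE change of −0.12 (adjusted p = 0.378, edgeR). RIP1 gave a TE change of 0.16 (adjusted p = 0.4, edgeR) and SDH1 one of 0.31 (adjusted p = 0.0542, edgeR). In total RNA 11 members rose and 2, ATP18 and ATP4, fell (37.6% called), which became 18 and 0 under library size alone. At that setting 1297 of 4988 ORFs were called higher. Leaving out asc1-M1X culture 1 or 2 or WT culture 2 ended the NDI1 call. The difference between the RNA selections was not tested.

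The change in asc1-M1X differed between the media for nearly the whole set. Of 39 members, the footprint change was lower in glycerol than in glucose for 37 and higher for 1, CYC7, by edgeR's test of the strain by medium interaction, with a median difference of −0.81 on the log2 scale, where 27.3% of ORFs were called, 20.2% lower, with a median of −0.12 over all ORFs. NDI1 differed by −1.59 ± 0.15 (adjusted p = 0.000124, edgeR), and NDE2, with few reads in glucose, by −2.35 (adjusted p = 0.0267, edgeR). ATP2 differed by −1.12 ± 0.12 (adjusted p = 0.000341, edgeR) and CYC7 by 1.82 ± 0.23 (adjusted p = 0.000586, edgeR). All subunits of complexes II and III and of the ATP synthase and 8 of 9 of complex IV were lower. In total RNA 18 members differed downwards, among them the complex III subunits QCR10 (YHR001W-A), by −0.94, and QCR7, by −0.84, and 1, CYC7, upwards (11.3% of ORFs called, 7.33% lower), and without a culture this count of 19 was 10 (asc1-M1X in glycerol, culture 2), 6 or 2 (asc1-M1X in glucose, culture 1 or 2), or 3 or 4 (WT in glucose, culture 1 or 2). TE differed for NDI1, at −1.33 ± 0.22 (adjusted p = 0.0167, edgeR), where 0.461% of ORFs were called; the call was lost without any 1 of the 4 glucose cultures, while with the replicate block 4 members were called, NDI1, QCR2, SDH1 and RIP1. That block called TE of 294 of 5201 ORFs. Medium and experiment cannot be told apart here either.

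Without a replicate block, no member tested was called in the ribosome-binding mutants of Asc1. With it 1 member was called higher in total RNA of asc1-D109Y, among 304 ORFs called. In asc1-D109Y, edgeR and DESeq2 called 0 members in footprints, total RNA and TE, where edgeR called 0.779%, 0.35% and 0.0% of ORFs, and 2, 1 and 0 members had an unadjusted p under 0.05. Footprint changes of the members tested ran from −0.07 for ATP4 to 0.24 for CYC7, and total RNA changes from −0.09 for ATP14 to 0.88 for NDE2 (adjusted p = 0.604, edgeR). NDE2 had too few footprint reads to test, with 32 and 38 in asc1-D109Y, against 19 and 9 in WT. In asc1-DE, with 0.0207%, 0.0% and 0.0% of ORFs called, both tools again called 0 members and 0 had an unadjusted p under 0.05 in any measure. There footprints ran from −0.26 for ATP18 to 0.39 for CYC7 on the log2 scale. Few calls were made on any gene in these comparisons, so an absence of calls does not show that the members did not change. The difference between these alleles and the nulls was not tested.

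Loss of the large-subunit proteins raised more members in glucose than loss of Asc1 did by count, and with larger fold changes in NDE1, CYC1 and the ATP synthase. In rpl23bΔ, 23 of 38 members rose and 3 fell in footprints, with a median of 0.26 (49.1% of ORFs called, 24.4% higher), and in rpp1aΔ 25 rose and 3 fell, with a median of 0.33 (40.7% called, 20.6% higher). Under library size alone these were 32 and 0 in rpl23bΔ, and 31 and 2 in rpp1aΔ. Over all ORFs 2105 of 4898 and 1846 of 4896 were then called higher. The shift of the median of all ORFs was 0.18 and 0.17. Both share their WT with the Asc1 nulls, and the differences between strains were not tested.

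NDE1 had 494 and 520 footprint CPM in rpl23bΔ and 472 and 444 in rpp1aΔ, against 146 and 148 in WT (1.79 ± 0.07, adjusted p = 4.23e-12, and 1.64 ± 0.06, adjusted p = 1.48e-06, edgeR). Its total RNA was 647 and 619 in rpl23bΔ and 563 and 562 in rpp1aΔ, against 160 and 153 in WT. CYC1 had 883 and 964 footprint CPM in rpl23bΔ and 872 and 1007 in rpp1aΔ, against 474 and 545 in WT (0.86 ± 0.07, adjusted p = 1.18e-07, and 0.88 ± 0.09, adjusted p = 0.000227, edgeR). For both genes the mutant libraries lay well above WT in footprints and in total RNA.

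Complex III rose in 7 of 9 subunits in each strain. Its small subunit QCR8 had 192 and 200 CPM in rpl23bΔ and 199 and 223 in rpp1aΔ, against 107 and 117 in WT (0.80 and 0.91). CYT1 had 397 and 404 in rpl23bΔ and 405 and 372 in rpp1aΔ, against 272 and 264 in WT (0.58 and 0.54). The ATP synthase rose in 8 of 12 subunits in each strain, with none lower and medians of 0.24 and 0.30. ATP20 had 93.2 and 100 in rpl23bΔ and 96.4 and 108 in rpp1aΔ, against 51.1 and 59.5 in WT (0.80 and 0.88), and ATP16 had 211 and 214 in rpl23bΔ and 206 and 207 in rpp1aΔ, against 143 and 144 in WT (0.57 and 0.52). In complex IV, COX7 had 128 and 117 in rpl23bΔ and 128 and 137 in rpp1aΔ, against 75.7 and 72.2 in WT (0.73 and 0.84).

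QCR7 had 310 CPM in each rpp1aΔ library, against 191 and 200 in WT (0.67). The stator subunit ATP7 had 270 and 293 in rpl23bΔ and 256 and 298 in rpp1aΔ, against 164 and 200 in WT (0.63 and 0.60), and COX5A had 356 and 340 in rpl23bΔ and 345 and 367 in rpp1aΔ, against 241 and 242 in WT (0.53 and 0.56). In none of these did a mutant library reach the WT range.

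The same 3 members fell in both deletions, each from another complex. SDH1 had 88.8 and 94.2 footprint CPM in rpl23bΔ and 90.5 and 85.5 in rpp1aΔ, against 122 and 115 in WT (−0.38 ± 0.08, adjusted p = 0.00111, and −0.43 ± 0.07, adjusted p = 0.00267, edgeR). NDI1 had 74.8 and 80.7 in rpl23bΔ and 82.2 and 77.1 in rpp1aΔ, against 102 and 89.5 in WT (−0.30, adjusted p = 0.0124, and −0.26, adjusted p = 0.0447, edgeR). COX5B had 4.11 and 4.86 in rpl23bΔ and 2.93 and 4.14 in rpp1aΔ, against 7.07 and 6.64 in WT (−0.62 ± 0.22, adjusted p = 0.0298, and −0.98 ± 0.25, adjusted p = 0.0158, edgeR). None of the 3 overlapped WT, but under library size alone none was called in rpl23bΔ, and in rpp1aΔ NDI1 was not. SDH1 and NDI1 were thus lower here and higher in the Asc1 nulls, each against the same WT libraries.

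Total RNA rose for 20 members in rpl23bΔ, with 0 lower (24.3% of ORFs called, 11.7% higher) or, with the replicate block, 26 and 2, and in rpp1aΔ 17 rose and 2 fell (28.5% called, 13.2% higher), or 22 and 0 under library size alone. Over all ORFs the block called 1041 of 5151 higher in rpl23bΔ, and library size alone called 1358 of 5150 higher in rpp1aΔ. Without WT culture 1, the rpl23bΔ counts were 17 in footprints and 8 in total RNA and the rpp1aΔ count in total RNA was 10, or 11 without rpp1aΔ culture 2. TE was called for 0 members in rpl23bΔ and in rpp1aΔ by edgeR (2.68% and 3.87% of ORFs called), with 7 and 11 members at an unadjusted p under 0.05 and 1 and 0 by DESeq2. With the replicate block, TE of QCR6, QCR7 and CYT1 fell in rpl23bΔ, by 0.60, 0.44 and 0.42 on the log2 scale, and 10 members were called in rpp1aΔ, 6 higher and 4 lower. The block called TE of 270 of 4891 ORFs in rpl23bΔ and of 1008 of 4890 in rpp1aΔ.

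**Figure D4:**
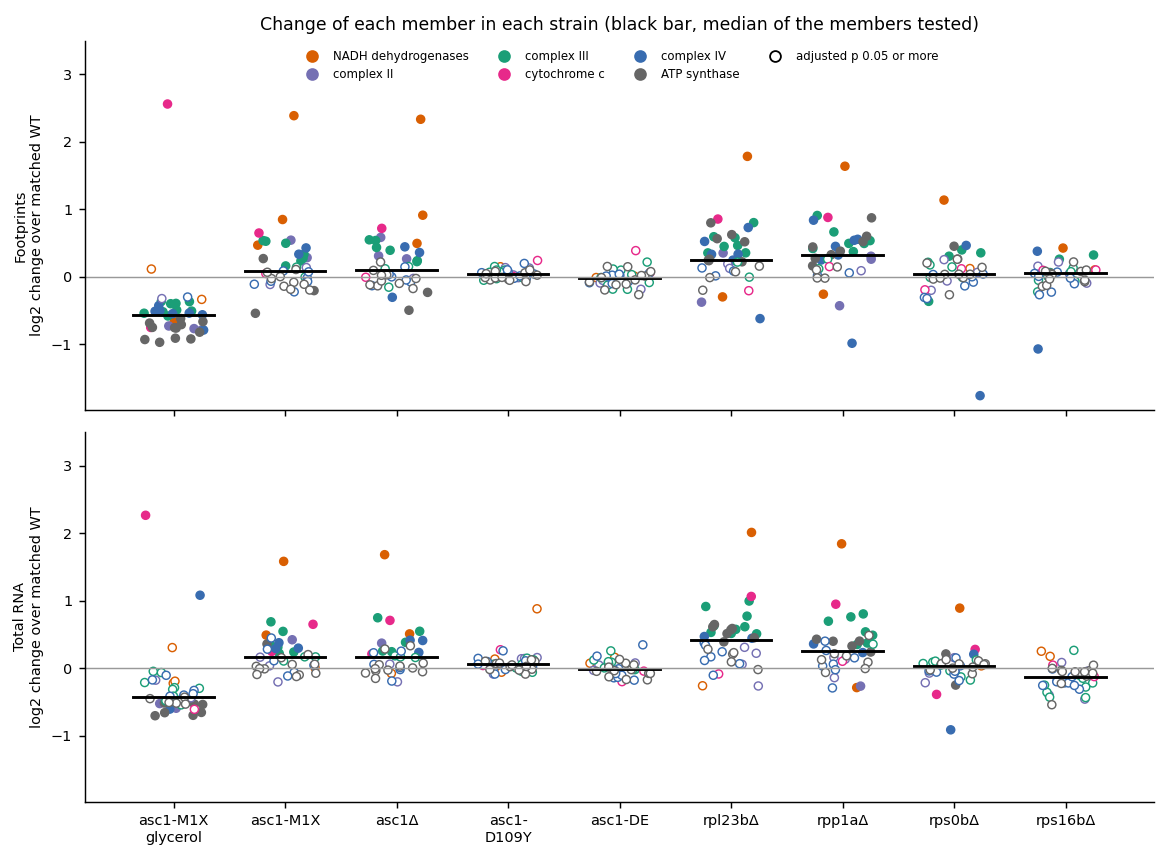
Log2 change of every member tested in each of 9 comparisons with the matched WT, in footprints (top) and total RNA (bottom), with a black bar at the median of the members tested. Footprint medians are 0.26 in rpl23bΔ, 0.33 in rpp1aΔ and −0.57 in asc1-M1X in glycerol, and those of the point mutants lie near 0.

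In footprints of the small-subunit deletions, 23.7% of members tested were called in rps0bΔ and 13.2% in rps16bΔ, beside 19.8% and 7.09% of all ORFs. In rps0bΔ, 7 of 38 members rose and 2 fell in footprints (19.8% of ORFs called, 8.65% higher), or 9 and 1 under library size alone. At that setting 605 of 4935 ORFs were called higher. NDE1 had 235 and 243 CPM in rps0bΔ, against 111 and 105 in the collection WT (1.14 ± 0.08, adjusted p = 2.02e-06, edgeR), and COX5B had 2.18 and 1.61 in rps0bΔ, against 6.70 and 6.38 in the collection WT (−1.76 ± 0.26, adjusted p = 0.000714, edgeR). In total RNA 4 rose and 3 fell (25.5% called), a count that was 4 in all without rps0bΔ culture 1, and NDE1 and COX5B moved as in footprints, by 0.89 and −0.91.

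In rps16bΔ, 4 members rose and 1 fell in footprints (7.09% of ORFs called, 2.88% higher), NDE1, COX7, RIP1 and CYT1 against COX5B. NDE1 had 146 CPM in each rps16bΔ library, against 111 and 105 in the collection WT (0.43, adjusted p = 0.00438, edgeR), and COX5B had 2.47 and 3.63, against 6.70 and 6.38 in the collection WT (−1.07 ± 0.22, adjusted p = 0.0183, edgeR). The count of 5 was 2 without rps16bΔ culture 1, 3 without its culture 2 and 15 without column 2 of the collection WT. Total RNA was called for 0 members (0.415% of ORFs called), with 3 at an unadjusted p under 0.05, but for 19 without rps16bΔ culture 2, where TE was called for 8. With all cultures TE was called for 0 members in rps0bΔ and in rps16bΔ by edgeR and by DESeq2 (1.39% and 0.145% of ORFs called by edgeR), with 9 and 7 at an unadjusted p under 0.05. Thus NDE1 rose and COX5B fell in footprints in all 4 ribosomal protein deletions, in which pairs of strains shared a WT. COX5B rests on 14 to 46 footprint reads in each deletion library, and its fall in rpl23bΔ was not called under library size alone.

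The isoform pairs were followed as the ratio of reads on the 2 ORFs in each library. The ratio is uncorrected for length, so only its differences between libraries are read. In footprints CYC1 had 22.3 and 29.4 reads per CYC7 read in asc1-M1X in glycerol, against 285 and 243 in WT in glycerol. In glucose the ratio was 12.3 and 12.7 in asc1-M1X, 11.1 and 11.8 in asc1Δ, 37.7 and 41.7 in rpl23bΔ and 35.4 and 28.0 in rpp1aΔ, against 17.96 and 19.99 in WT. The ratio was thus lower than WT in the Asc1 nulls and higher than WT in the large-subunit deletions, without overlap.

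COX5A had 337 and 843 footprint reads per COX5B read in asc1-M1X in glycerol, against 2114 and 1031 in WT in glycerol, ratios that rest on few COX5B reads. In total RNA the same ratio was 9.22 and 10.2 in asc1-M1X, against 21.9 and 31.7 in WT. In glucose footprints it was 34.6 and 29.9 in asc1-M1X, 86.4 and 69.9 in rpl23bΔ and 118 and 88.5 in rpp1aΔ, against 34.1 and 36.5 in WT. NDE1 had 20.1 and 20.9 footprint reads per NDE2 read in asc1-M1X, with 22.6 and 20.4 in asc1Δ, against 52.1 and 134 in WT in glucose. In glycerol that ratio overlapped, with 12.0 and 24.5 in asc1-M1X and 19.0 and 26.6 in WT.

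**Figure D5:**
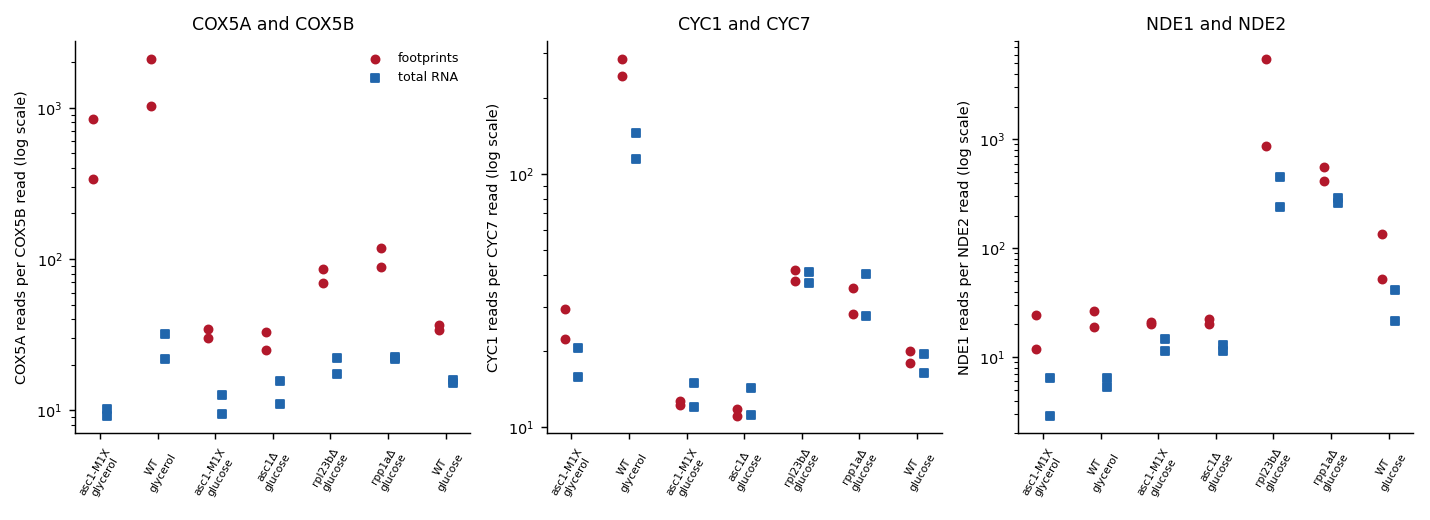
Ratio of reads (log axis), in footprints and in total RNA, for the isoform pairs CYC1 and CYC7, COX5A and COX5B, and NDE1 and NDE2. Each library is 1 point, in asc1-M1X and WT in glycerol and in asc1-M1X, asc1Δ, rpl23bΔ, rpp1aΔ and WT in glucose. In footprints CYC1 per CYC7 is 22.3 and 29.4 in asc1-M1X in glycerol, against 285 and 243 in WT. The NDE1 footprint ratio in rpl23bΔ rests on 1 and 5 NDE2 reads.

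Assembly factors build the complexes without being part of them. Of 24 assembly factors of complex IV, 1 rose and 10 fell in footprints of asc1-M1X in glucose, with a median of −0.30, where 25.9% of all ORFs were called higher and 26.2% lower, and the counts were the same in asc1Δ. Of 9 assembly factors of the ATP synthase, 1 rose and 5 fell, with a median of −0.39 in asc1-M1X. Of 12 factors for complexes II and III and cytochrome c, 2 rose and 4 fell, with a median of −0.12, a value smaller than the shift of 0.15 that library size alone gives, so no direction is given for these. In glycerol, where 22.5% of all ORFs were called lower, 16, 8 and 7 of these factors were lower in asc1-M1X and 1, 0 and 0 higher by edgeR, with medians of −0.65, −0.75 and −0.40. In WT, every one of these factors was higher in glycerol than in glucose in footprints, with medians of 2.38, 2.02 and 2.56, where 40.2% of all ORFs were called higher.

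Of 8 further subunits and inhibitors outside the set, 4 rose and 1 fell in asc1-M1X in glucose, where 52.1% of all ORFs were called, 0 rose and 4 fell in glycerol by edgeR, where 41.3% were called, and 7 were higher in WT in glycerol than in WT in glucose. Among further dehydrogenases and the ADP/ATP and phosphate carriers of mitochondria, 4 of 9 tested rose and 3 fell in asc1-M1X in glucose, and 1 rose and 5 fell in glycerol, beside the same 52.1% and 41.3% of all ORFs called. CYB2, the lactate dehydrogenase that passes electrons to cytochrome c, was higher by 2.99 on the log2 scale in asc1-M1X in glucose (adjusted p = 8.42e-08, edgeR) and by 0.02 in glycerol. GUT2, the mitochondrial glycerol-3-phosphate dehydrogenase needed to use glycerol, was 1.35 in glucose and −1.06 in glycerol (adjusted p = 0.00258, edgeR for glycerol), and 6.13 in WT in glycerol over WT in glucose. HAP4, the activating subunit of the HAP complex that switches on respiratory genes, had footprint changes of −0.59 in asc1-M1X (adjusted p = 0.000862, edgeR) and −0.39 in asc1Δ (adjusted p = 0.0108) in glucose, and −0.83 in asc1-M1X in glycerol (adjusted p = 0.00305). Of the 5 HAP genes, 1 rose and 2 fell in asc1-M1X in glucose, and 1 rose and 3 fell in glycerol (52.1% and 41.3% of all ORFs called). HAP4 rose in rpl23bΔ, by 0.78 (adjusted p = 1.53e-05, edgeR), and in rpp1aΔ, by 0.66 (adjusted p = 0.00124), and by 4.88 in WT in glycerol over WT in glucose.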

How the data were processed

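The authors added cycloheximide (0.1 mg/ml) before harvest and prepared footprints and total RNA from one extract. Reads aligned uniquely to the Sigma1278b genome were counted per ORF by the authors, leaving out the first 30 codons, and the deposited counts were used as given; the submitters' processing notes name TopHat and DESeq, whose versions are not given in the sources used here. Short ORFs therefore have few counted codons. The 62 samples gave 56 libraries, since 6 re-prepared samples were pooled in the tables, and 19 mitochondrial ORFs were left out of each. Symbols were matched for 5560 of 5563 ORFs. Of the per-library columns, 4 WT columns could be tied to their group but not to a culture, and were left out by column number.

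Counts were scaled by TMM within library type and tested with edgeR 4.0.16 in R 4.3.3 (glmQLFit and glmQLFTest), after a minimum of 128 reads per library type, with Benjamini-Hochberg adjustment over all ORFs at 0.05. The fit was tested on simulated data. Alternatives were DESeq2 1.42.0 and its size factors, library size alone, no minimum or 10 reads in every library, a replicate block, leaving out each culture, and, added after seeing the data, the deletion collection WT as reference. Footprints and total RNA of one number share an extract, and their deviations correlated at 0.002 to 0.529 (17 of 18 over 0.1); the groups compared, mutant and WT or WT in both media, share only a number (−0.046 to 0.633, 14 of 18 over 0.1). No 2 replicates agreed within sampling noise. Values per library were given for the isoform pairs and for members of each complex with the smallest adjusted p in each direction, except where a sentence gives the extremes of a list. The members and gene lists were chosen with earlier results of these data known.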

Additional observations from a re-analysis of the deposited data

Results flagged for a closer look

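The response to loss of Asc1 differed between glycerol and glucose, by edgeR's test of the strain by medium interaction with Benjamini-Hochberg adjustment, for 38 members in footprints, 19 in total RNA and 1 in TE. Over all ORFs tested, 27.3%, 11.3% and 0.461% were called. The total RNA count and the TE call depended on single cultures, as given above. The values below are log2 differences, the change of asc1-M1X over WT in glycerol minus that in glucose.

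In footprints the differences were −1.59 for NDI1, −0.88 for NDE1 and −2.35 for NDE2 among the NADH dehydrogenases. In complex II they were −1.15 for SDH1, −0.94 for SDH2 and −0.98 for SDH4, and in complex III −1.07 for QCR2, −0.99 for RIP1 and −0.97 for QCR9. In complex IV they were −0.98 for COX12, −0.81 for COX13, −0.70 for COX6 and −0.44 for COX5A. In the ATP synthase they were −1.12 for ATP2, −1.04 for ATP7 and −1.10 for ATP20. CYC1 differed by −0.88 and CYC7 by 1.82.

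In total RNA the differences were −0.71 for NDE1, −0.72 for SDH4 and −0.63 for SDH2. In complex III they were −0.996 for QCR9, −0.94 for QCR10 and −0.84 for QCR7, and in complex IV −0.87 for COX12, −0.74 for COX6 and −0.53 for COX9. In the ATP synthase they were −0.77 for ATP16, −0.73 for ATP2 and −0.61 for ATP3. CYC1 differed by −0.89 and CYC7 by 1.58. In TE the single called member was NDI1, at −1.33. Each medium was profiled in its own experiment, and the part of the experiment in these differences was not tested.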

How the results depend on the processing

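Of 204 counts of members called under other settings with all cultures, 188 stayed within 1.5 times the reported count, and of 152 with a culture left out, 114 did. For single members, 1827 of 1904 values under those settings and 1214 of 1468 with a culture left out stayed on their side of the threshold with the same sign, and 212 of those with a culture left out lost their call. Depth limits NDE2, which stayed under 128 footprint reads in 6 of the mutant comparisons, and COX5B, which did so in glycerol. The cause of the changes below was not tested. Counts with a culture left out are given for the members alone, without a share over all ORFs.

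DESeq2 called 7 members in total RNA and 2 in TE of asc1Δ, 1 in TE of rpl23bΔ, 4 in total RNA of rps0bΔ, 22 in total RNA of asc1-M1X in glycerol, and 7 in total RNA and 0 in TE of the Ribo-Zero comparison. Over all ORFs DESeq2 called 1107, 402, 146, 682, 900, 889 and 148 there, in the same order. edgeR called 1710, 568, 131, 1290, 967, 1877 and 446. Library size alone called TE of 2 members in rpp1aΔ and of 2 in the Ribo-Zero comparison. Over all ORFs it called TE of 218 and 524, against 189 and 446 with TMM. With the replicate block, the members called were 11 in TE of asc1Δ, 1 in total RNA of asc1-D109Y, 3 in TE of rpl23bΔ, 10 in TE of rpp1aΔ, 2 in TE of asc1-M1X in glycerol, 2 in TE of the Ribo-Zero comparison and 4 in TE between the media, and no other total count of members called moved by over 1.5 times. The block also raised TE calls over all ORFs, from 568 to 1484 in asc1Δ, 189 to 1008 in rpp1aΔ and 11 to 556 in asc1-M1X in glycerol. It raised them from 131 to 270 in rpl23bΔ, 446 to 602 in the Ribo-Zero comparison and 24 to 294 between the media. Total RNA calls in asc1-D109Y went from 18 to 304 ORFs. No paired analysis was possible because the numbers of the collection WT columns could not be tied to cultures, for rps0bΔ and rps16bΔ. With the collection WT as reference, TE was called for 20 members in WT in glycerol, beside 36.8% of all ORFs.

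In asc1-M1X in glucose, library size alone gave COX5A 0.084 in footprints, 0.063 in total RNA and 0.021 in TE, and NDE1 0.006 in TE, while the TE of CYC7 was −0.015 by DESeq2 and −0.001 with the replicate block. In the Ribo-Zero comparison library size alone gave COX5B 0.028 in total RNA and NDE1 0.025 in TE, and the replicate block gave CYC1 −0.007 for TE between the media. With the collection WT as reference, total RNA of CYC7 was −1.903 and of COX5B −1.629 in WT in glycerol, and TE was 0.23 for ATP15, 1.022 for ATP18, 0.642 for ATP20, 0.312 for SDH3, −0.144 for SDH1, 1.072 for QCR8, 0.351 for QCR7, 0.199 for QCR10, 1.285 for COX7, 0.361 for COX12, 0.541 for COX13, 0.74 for CYC7 and 0.04 for CYC1.

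With each culture left out in turn, the members called ran from 6 to 18 in total RNA of asc1-M1X in glucose (6 without its culture 2) and from 1 to 4 in its TE (2 and 1 without its culture 1 and 2). They ran from 7 to 13 in total RNA of asc1Δ and were 1 in its TE each time, and ran from 0 to 1 in total RNA of asc1-D109Y (1 without WT culture 2). In rpl23bΔ they ran from 17 to 25 in footprints, 8 to 26 in total RNA and 0 to 4 in TE (4 without its culture 1). They ran from 10 to 16 in total RNA of rpp1aΔ, from 4 to 7 in total RNA and 0 to 1 in TE of rps0bΔ (1 without column 2 of the collection WT in both library types), and in rps16bΔ from 2 to 15 in footprints, 0 to 19 in total RNA and 0 to 8 in TE. They ran from 3 to 18 in total RNA of asc1-M1X in glycerol, 0 to 1 in TE of the Ribo-Zero comparison, and 2 to 28 in total RNA and 0 to 1 in TE between the media.

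Log2 changes that changed sign on leaving out a culture ran, in asc1-M1X in glucose, from −0.086 to 0.222 for COX5B and −0.047 to 0.157 for CYC1 in footprints, and in TE from −0.051 to 0.029 for COX5A, −0.192 to 0.206 for CYC7, −0.321 to 1.883 for NDE2 and −0.065 to 0.023 for NDE1. In asc1-M1X in glycerol they ran from −0.427 to 0.523 for NDE2 in footprints, −0.269 to 0.72 for NDE2 in total RNA and −0.218 to 0.112 for COX5A in TE. In the Ribo-Zero comparison they ran from −0.22 to 0.005 for COX5A and −0.335 to 0.196 for COX5B in total RNA, and in TE from −0.056 to 0.156 for COX5A, −0.545 to 1.133 for NDE2, −0.158 to 0.459 for COX5B and −0.138 to 0.036 for NDE1. Between the media they ran from −0.025 to 1.434 for COX5B in footprints, and in TE from −0.238 to 0.073 for COX5A, −2.118 to 0.08 for NDE2, −0.317 to 0.96 for COX5B and −0.115 to 0.108 for CYC1.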
